A study of Mus musculus with 12 samples.

Results

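The nuclear genes of respiratory complexes III, IV and V were followed in mouse liver after concanavalin A (Con A) and after Con A followed by human mesenchymal stem cells (MSCs). Members were all rows of the deposited expression table whose gene symbol begins with Uqcr, Cox4, Cox5, Cox6, Cox7, Cox8 or Atp5, together with Cyc1 and Cycs, which gave 38 of the 11289 rows. They comprised 9 subunits of complex III, 10 of complex IV, 15 of complex V and the carrier cytochrome c (Cycs). The remaining 3, Cox7a2l, Atp5s and Atp5sl, match the symbols but encode assembly or accessory factors and were counted apart. Subunits encoded by mitochondrial DNA were not analysed here.

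Liver RNA of 12 C57BL/6J mice aged 8 to 10 weeks was sequenced, with 4 mice in each of the groups Ctrl, Con A and Con A + MSCs. Con A is a lectin from plants that causes acute, T cell-driven hepatitis in mice, and it was given once into the tail vein at 15 mg/kg in the Con A and Con A + MSCs groups. PBS (Con A group) or 2000000 MSCs of the human umbilical cord (Con A + MSCs group) followed intravenously 30 min later, and livers were taken 24 h after Con A. The labels do not say what the Ctrl mice were injected with, and the part of the transferred human cells in the values was not tested. The 12 values of a row are whole numbers already normalized between livers, so sequencing depth is unknown, and they are called normalized values here.

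Electrons reach complex III from ubiquinol, pass through its cytochrome c1 subunit to the small mobile protein cytochrome c, and are handed to oxygen by complex IV. Both complexes pump protons, and complex V (ATP synthase) lets the protons flow back through a rotating ring of c subunits, which turns a central stalk inside a catalytic head and drives ATP synthesis. Hepatocytes are rich in mitochondria and use this ATP for gluconeogenesis, urea synthesis and secretion of plasma proteins.

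The c subunit of complex V is encoded by 3 genes, Atp5g1, Atp5g2 and Atp5g3, whose proteins differ in the import sequence that is cut off and not in the mature ring subunit. Of these, Atp5g1 was called between groups, as described further on, and Cycs moved against the complexes, so the 200 bases upstream of their RefSeq start sites are shown first. Uqcr11, the complex III gene with the largest Con A difference, and Atp5l, the member with most motif matches, are shown beside them. The sequences are those of RefSeq for GRCm38.p6, written 5′ to 3′ on the coding strand and ending at the base before the start site, which lay within 80 bases of the start of the transcript listed for each of these genes. Capitals mark matches to 1 of 4 motifs searched on both strands: TGCGCA (the factor NRF1), CCGGAAG (ETS factors such as GABPA), AAGATGG (YY1) and AAGGTCA (ERR alpha, which reads TGACCTT where it lies on the other strand).
Atp5g1 (chr11:96075632-96075831, minus strand): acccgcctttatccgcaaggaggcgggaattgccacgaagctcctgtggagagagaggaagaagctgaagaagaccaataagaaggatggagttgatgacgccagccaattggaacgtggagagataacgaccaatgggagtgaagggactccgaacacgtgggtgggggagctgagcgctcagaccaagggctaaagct
Atp5g2 (chr15:102671048-102671247, minus strand): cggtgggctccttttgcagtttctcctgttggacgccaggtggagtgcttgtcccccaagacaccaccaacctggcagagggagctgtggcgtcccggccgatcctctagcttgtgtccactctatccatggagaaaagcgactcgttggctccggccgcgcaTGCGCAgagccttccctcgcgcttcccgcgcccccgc
Atp5g3 (chr2:73911327-73911526, minus strand): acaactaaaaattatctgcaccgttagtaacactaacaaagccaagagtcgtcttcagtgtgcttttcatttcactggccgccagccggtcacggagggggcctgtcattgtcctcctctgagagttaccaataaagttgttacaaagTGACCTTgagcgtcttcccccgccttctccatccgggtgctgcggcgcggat
Cycs (chr6:50566570-50566769, minus strand): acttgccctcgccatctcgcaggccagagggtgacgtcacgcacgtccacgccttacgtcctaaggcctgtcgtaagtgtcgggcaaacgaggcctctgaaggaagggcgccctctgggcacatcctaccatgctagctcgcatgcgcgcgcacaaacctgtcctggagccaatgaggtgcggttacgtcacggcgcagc
Uqcr11 (chr10:80406822-80407021, minus strand): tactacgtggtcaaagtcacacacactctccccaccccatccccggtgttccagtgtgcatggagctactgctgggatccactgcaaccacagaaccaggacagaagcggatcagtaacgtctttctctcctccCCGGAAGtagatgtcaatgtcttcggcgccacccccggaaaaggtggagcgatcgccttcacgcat
Atp5l (chr9:44920743-44920942, minus strand): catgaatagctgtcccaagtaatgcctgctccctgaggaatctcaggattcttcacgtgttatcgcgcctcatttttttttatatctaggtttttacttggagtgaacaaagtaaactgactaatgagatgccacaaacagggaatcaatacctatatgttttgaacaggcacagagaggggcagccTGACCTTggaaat

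The windows of Atp5g1 and Cycs held no match to these letters, and the 4 others held 1 each. RefSeq promoters, 250 bases before to 50 bases after the start, were matched to 28 of the 38 members; the others were Cyc1, Uqcrc2, Uqcrb, Uqcrq, Cox4i1, Cox6c, Atp5a1, Atp5f1, Atp5s and Atp5sl. CCGGAAG was found in 10 of the 28 (35.7%), against 18.8% of the 8492 genes of the table with a promoter and 8.86% of all 32851 promoters of that length. AAGGTCA was found in 4 (14.3%, against 3.19% and 4.72%), TGCGCA in 5 (17.9%, against 14.7% and 7.76%) and AAGATGG in 3 (10.7%, against 7.44% and 6.34%). In 22 of the 28 the start of the RefSeq promoter lay within 100 bases of that of the listed transcript, and the other 6 (Atp5d, Atp5h, Atp5j, Atp5j2, Atp5o and Cox7c) lay farther off, at most 4648 bases in Atp5o. Over the 22 alone, CCGGAAG was found in 8 (36.4%), AAGGTCA in 4 (18.2%), TGCGCA in 5 (22.7%) and AAGATGG in 0, against 19.4%, 3.21%, 15.3% and 7.74% of the 6800 genes of the table within that distance. No motif contains another, and Atp5l held 2 matches to CCGGAAG and 1 each to TGCGCA and AAGGTCA in the longer window. Members called lower after Con A, in the comparison that follows, numbered 2 of 10 with CCGGAAG and 5 of 18 without it, 0 of 5 with TGCGCA and 7 of 23 without it, 1 of 3 with AAGATGG and 6 of 25 without it, and 0 of 4 with AAGGTCA and 7 of 24 without it, where 19.2% of all rows were called lower. A match is a run of letters and not a measured binding site. Only these exact letters were searched, so a window without a match, such as that of Cycs, can still hold a binding site.

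The first comparison asks what had happened to these genes 24 h after Con A. Of the 38 members, 12 fell in the Con A livers against the Ctrl livers and 1, Cycs, rose. A call required a Benjamini-Hochberg adjusted p under 0.05 over all 11289 rows, from limma on log2(value + 1), and a fold change above 1.5 in either direction. Of all rows, 19.2% were called lower and 19.5% higher, so that the 31.6% of members called lower compare with 19.2% and the 2.63% called higher with 19.5%. By complex, 4 of 9 members of complex III, 2 of 10 of complex IV and 5 of 15 of complex V fell, and Atp5sl fell among the factors. The 2 of 10 in complex IV were close to the 19.2% of all rows, and this count was 0 without Ctrl liver 1 and 0 without Con A liver 4. The median log2 fold change was -0.50 in complex III, -0.34 in complex IV and -0.61 in complex V, beside 0.05 over all rows. All 9 complex III and all 10 complex IV members had a fold change below 0, as did 12 of the 15 of complex V. The values of all 4 Con A livers lay below all 4 Ctrl livers in 14 members, where 23.4% of all rows do, and above them in 2, where 27.1% do. By the adjusted p alone 17 members were lower (26.0% of all rows) and 1 higher (29.5%). The difference between complexes is a description and was not tested.

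**Figure D1:**
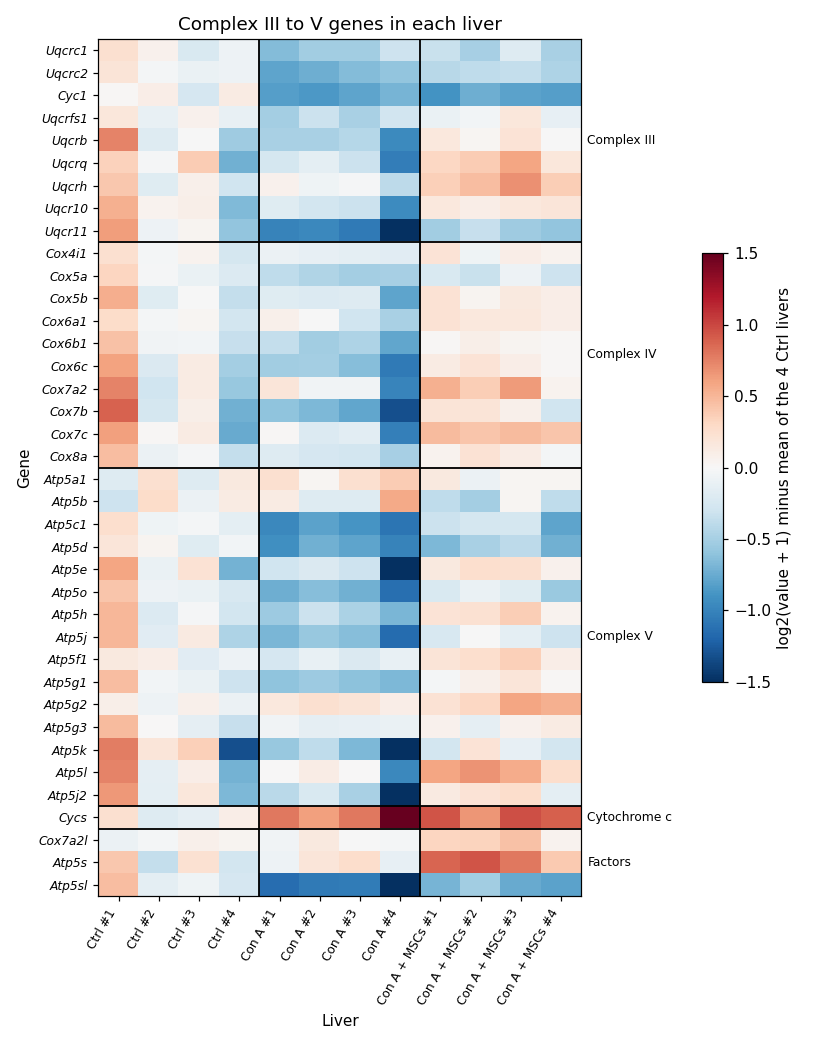
Heat map of log2(value + 1) in each of the 12 livers (columns) for the 38 genes (rows, by complex), minus the mean of the 4 Ctrl livers, on a scale from -1.5 to 1.5. Most complex III to V rows are blue in the 4 Con A livers, deepest in Con A liver 4, while Cycs is red in the 8 livers given Con A and Cyc1 is blue in them.

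The livers of a group were not alike, and this touches every count above. Ctrl liver 1 was the highest Ctrl liver in 33 of the 38 members and Ctrl liver 4 the lowest in 28, Con A liver 4 was the lowest Con A liver in 27, and Con A + MSCs liver 4 the lowest of its group in 25. The median of all members, relative to the Ctrl mean, was 0.43, -0.07, 0.02 and -0.29 in Ctrl livers 1 to 4, and -0.33, -0.26, -0.38 and -0.74 in Con A livers 1 to 4. Within single complexes, the medians of the 4 Con A livers lay below those of the 4 Ctrl livers in complex III (-0.70 to -0.48 against -0.30 to 0.35). They overlapped in complex IV (-0.78 to -0.19 against -0.36 to 0.50) and complex V (-0.97 to -0.23 against -0.27 to 0.46). With 1 liver left out at a time, between 8 members (without Ctrl liver 1) and 20 members (without Ctrl liver 4) were called lower, and with Ctrl liver 1 and Con A liver 4 both left out, 6 were. Those 6 were Uqcrc2, Cyc1, Uqcr11, Atp5c1, Atp5d and Atp5sl, and the complex medians were then -0.39 for III, -0.06 for IV and -0.19 for V.

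**Figure D2:**
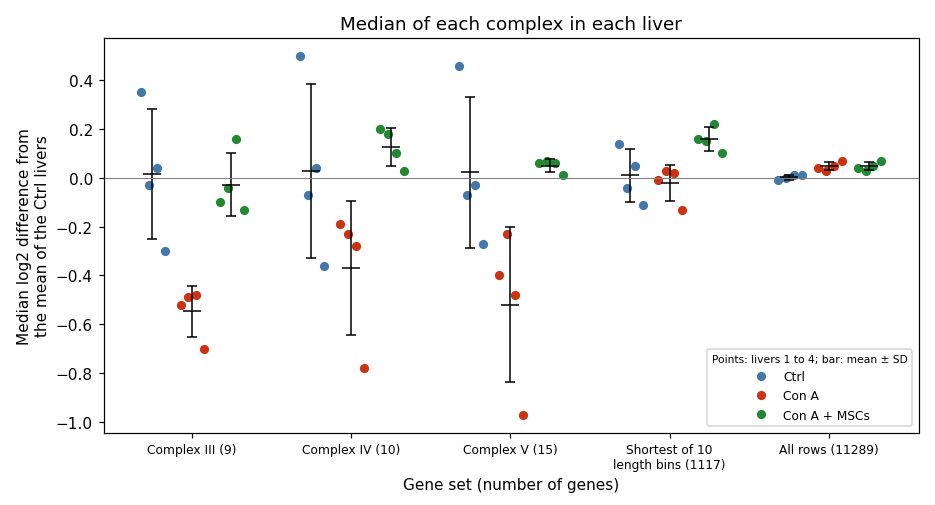
Median log2 difference from the Ctrl mean over the members of each complex, over the shortest of 10 length bins and over all rows, in each liver (points, livers 1 to 4 from left to right) with mean ± SD of the 4 livers (bars). The Con A livers lie below all Ctrl livers in complex III (-0.70 to -0.48 against -0.30 to 0.35) and overlap with them in complexes IV and V, and the Con A + MSCs livers lie between -0.13 and 0.20 in the 3 complexes.

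In complex III, Cyc1 encodes cytochrome c1, the subunit that passes electrons to cytochrome c. The normalized values of Cyc1 were 3079, 3260, 2546 and 3308 in Ctrl livers 1 to 4, 1714, 1665, 1746 and 1865 in Con A livers 1 to 4 and 1633, 1824, 1734 and 1714 in Con A + MSCs livers 1 to 4. All 8 livers given Con A lay well below the 4 Ctrl livers, and the Con A and Con A + MSCs groups overlapped. The log2 fold change was -0.80 after Con A (SE 0.10, limma adjusted p = 4.6e-05) and -0.02 between Con A + MSCs and Con A (SE 0.10, adjusted p = 0.921), so that Cyc1 stayed called lower in Con A + MSCs against Ctrl (-0.81, adjusted p = 7.7e-05). These calls after Con A and with MSCs against Ctrl held with any 1 of the 12 livers left out.

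Uqcr11 encodes a small subunit of complex III. Its values were 3040, 1866, 2021 and 1306 in Ctrl livers 1 to 4, 978, 1006, 944 and 517 in Con A livers 1 to 4 and 1365, 1546, 1364 and 1300 in Con A + MSCs livers 1 to 4. The 3 groups were in the order Con A, Con A + MSCs, Ctrl, with Con A below all other livers and Ctrl liver 4 among the Con A + MSCs livers. Uqcr11 fell by 1.24 on the log2 scale after Con A (SE 0.25, limma adjusted p = 0.00114), the largest difference among the complex III members, and was 0.74 higher with MSCs than in Con A (SE 0.25, adjusted p = 0.0622), which did not pass.

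Uqcrc2, a core protein of complex III, had values of 4658, 3976, 3804 and 3862 in Ctrl livers 1 to 4, 2341, 2444, 2580 and 2696 in Con A livers 1 to 4 and 3046, 3126, 3164 and 2938 in Con A + MSCs livers 1 to 4. Every Con A liver was lower than every Ctrl liver, and every Con A + MSCs liver lay between these groups. The log2 fold change was -0.69 after Con A (SE 0.10, limma adjusted p = 8.7e-05) and 0.29 with MSCs against Con A (SE 0.10, adjusted p = 0.0628). Its listed transcript shares 23.8% of its 75-base windows with the overlapping gene Pdzd9, so reads of the pair could have been split.

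Uqcrb and Uqcrq encode small subunits of complex III named for the binding of ubiquinone. The values of Uqcrb were 4840, 2530, 2869 and 1992 in Ctrl livers 1 to 4, 2062, 2062, 2148 and 1488 in Con A livers 1 to 4 and 3232, 2942, 3321 and 2869 in Con A + MSCs livers 1 to 4. Con A liver 4 was lower than its group, Ctrl liver 1 was higher than its own, and the Con A and Ctrl groups overlapped although Uqcrb was called lower (log2 fold change -0.59, SE 0.22, limma adjusted p = 0.0379). That call was lost in 4 of the 12 fits with 1 liver left out, being kept in 8, and 29.1% of the 75-base windows of its transcript occur in processed pseudogenes. The values of Uqcrq were 6938, 5387, 7126 and 3314 in Ctrl livers 1 to 4, 4557, 4927, 4374 and 2649 in Con A livers 1 to 4 and 6748, 7126, 8231 and 6154 in Con A + MSCs livers 1 to 4. Ctrl livers spread over more than the Con A + MSCs group, and all Con A + MSCs livers lay above all Con A livers. Uqcrq was not called after Con A (-0.44, adjusted p = 0.148) and was called higher with MSCs against Con A (0.81, SE 0.25, limma adjusted p = 0.0498), a call kept in 3 of the 12 fits with 1 liver left out.

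The other complex III members were not called in any comparison. The core protein Uqcrc1 and the iron-sulfur (Rieske) protein Uqcrfs1 passed the adjusted p after Con A with log2 fold changes of -0.50 and -0.40, under the fold threshold, and in both genes all Con A livers lay below all Ctrl livers. After Con A the hinge protein Uqcrh had -0.10 and the small subunit Uqcr10 had -0.43, with groups that overlapped. With MSCs, all livers lay above all Con A livers in both genes, and Uqcrh passed the adjusted p under the fold threshold against Con A (0.57, limma adjusted p = 0.0378) and against Ctrl (0.47, adjusted p = 0.0302), as did Uqcrfs1 against Con A (0.38, adjusted p = 0.0437).

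In complex IV, Cox7b and Cox6c fell after Con A. Both encode small membrane subunits that surround the catalytic core. The values of Cox7b were 5574, 2503, 3200 and 1831 in Ctrl livers 1 to 4, 1978, 1892, 1752 and 1204 in Con A livers 1 to 4 and 3452, 3452, 3166 and 2448 in Con A + MSCs livers 1 to 4. Ctrl liver 1 was the highest of all 12 livers and Ctrl liver 4 lay below Con A livers 1 and 2, so the groups overlapped. The log2 fold change was -0.84 after Con A (SE 0.28, limma adjusted p = 0.0228) and 0.89 with MSCs against Con A (SE 0.28, adjusted p = 0.0548), the largest of complex IV, which did not pass although no Con A + MSCs liver overlapped with Con A. Its call after Con A was kept in 9 of the 12 fits with 1 liver left out, and the fold change was -0.55 without Ctrl liver 1.

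Cox6c had values of 4813, 2716, 3432 and 2211 in Ctrl livers 1 to 4, 2190, 2211, 2030 and 1508 in Con A livers 1 to 4 and 3432, 3627, 3388 and 3186 in Con A + MSCs livers 1 to 4. The highest Con A value equalled the lowest Ctrl value, and all Con A + MSCs livers lay above all Con A livers. Cox6c was called in both comparisons, with -0.69 after Con A (SE 0.21, limma adjusted p = 0.0131) and 0.79 with MSCs against Con A (SE 0.21, adjusted p = 0.0327). Its calls held in 10 and in 6 of the 12 fits with 1 liver left out, and 30.8% of the windows of its transcript are shared with an annotated transcript of Vps13b.

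Cox6b1, on the outer face where cytochrome c docks, had values of 3520, 2513, 2539 and 2046 in Ctrl livers 1 to 4, 2029, 1810, 1895 and 1518 in Con A livers 1 to 4 and 2630, 2774, 2678 and 2630 in Con A + MSCs livers 1 to 4. The Con A livers lay narrowly below the Ctrl livers and clearly below the Con A + MSCs livers. Both differences passed the adjusted p and missed the fold threshold (-0.53, SE 0.15, limma adjusted p = 0.00924, and 0.57, SE 0.15, adjusted p = 0.0334). Cox7c, a small membrane subunit, had values of 4562, 3008, 3229 and 1751 in Ctrl livers 1 to 4, 3008, 2580, 2654 and 1453 in Con A livers 1 to 4 and 4108, 3976, 4108 and 3976 in Con A + MSCs livers 1 to 4. All Con A + MSCs livers lay close together and above all Con A livers, but the difference of 0.79 did not pass (SE 0.27, limma adjusted p = 0.0634) and 44.6% of the windows of its transcript occur in pseudogenes.

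The 6 remaining complex IV members, Cox4i1, Cox5a, Cox5b, Cox6a1, Cox7a2 and Cox8a, were not called in any comparison. Their log2 fold changes after Con A lay between -0.46 (Cox5a, which passed the adjusted p alone) and -0.13 (Cox4i1). Cox4i1 and Cox5a encode the first nuclear subunits to join the catalytic core.

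In complex V the subunits did not move together. The catalytic head is built of alpha and beta subunits, encoded by Atp5a1 and Atp5b, and these were singled out after their values were seen. The values of Atp5a1 were 13888, 18853, 13888 and 17600 in Ctrl livers 1 to 4, 18853, 16250, 18853 and 20780 in Con A livers 1 to 4 and 17600, 15006, 16250 and 16250 in Con A + MSCs livers 1 to 4. Those of Atp5b were 14006, 21000, 16434 and 19007 in Ctrl livers 1 to 4, 19007, 15198, 15198 and 25900 in Con A livers 1 to 4 and 13327, 12268, 17720 and 13327 in Con A + MSCs livers 1 to 4. The groups overlapped in both genes, and the highest liver was Con A liver 4, which was the lowest Con A liver for most other members. Neither was called in any comparison, with log2 fold changes after Con A of 0.23 (95% interval -0.07 to 0.52) for Atp5a1 and 0.08 (-0.35 to 0.50) for Atp5b.

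In the central stalk, which turns inside the head, 2 of 3 genes fell after Con A. Atp5c1 (gamma subunit) had values of 4723, 3786, 3902 and 3578 in Ctrl livers 1 to 4, 2030, 2276, 2154 and 1861 in Con A livers 1 to 4 and 3186, 3299, 3299 and 2298 in Con A + MSCs livers 1 to 4. Every Con A liver was lower than every Ctrl liver, and Con A + MSCs liver 4 stood apart from the other 3 of its group, near the Con A livers. Atp5c1 fell by 0.94 on the log2 scale after Con A (SE 0.14, limma adjusted p = 0.00012), and the difference of 0.53 with MSCs against Con A passed the adjusted p (0.0339) but not the fold threshold.

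Atp5d (delta subunit) had values of 4181, 3795, 3260 and 3584 in Ctrl livers 1 to 4, 1956, 2234, 2138 and 1836 in Con A livers 1 to 4 and 2304, 2642, 2816 and 2234 in Con A + MSCs livers 1 to 4. The Ctrl livers lay above all 8 livers given Con A, and the Con A + MSCs livers reached down to the highest Con A liver. The log2 fold change was -0.86 after Con A (SE 0.12, limma adjusted p = 6.9e-05), 0.29 with MSCs against Con A (SE 0.12, adjusted p = 0.101) and -0.57 with MSCs against Ctrl (adjusted p = 0.00221, under the fold threshold). The third stalk gene, Atp5e (epsilon subunit), had values of 2042, 1261, 1569 and 831 in Ctrl livers 1 to 4, 1098, 1164, 1088 and 368 in Con A livers 1 to 4 and 1496, 1609, 1600 and 1420 in Con A + MSCs livers 1 to 4. Con A liver 4 was far below the others and Ctrl liver 4 lay among the Con A livers, and neither difference passed (-0.68, SE 0.34, limma adjusted p = 0.111, and 0.85, SE 0.34, adjusted p = 0.102).

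The peripheral stalk holds the head still against the rotation. Of its 4 genes, Atp5o and Atp5j fell after Con A by 0.81 and 0.76 on the log2 scale (limma adjusted p = 0.00118 and 0.00487), with no overlap between the Con A and Ctrl livers. Atp5o is uncertain, since 83.8% of the windows of its listed transcript, which spans the gene Donson, are shared with other annotated genes. Atp5h, singled out after its values were seen, had values of 4036, 2496, 2822 and 2375 in Ctrl livers 1 to 4, 1960, 2286, 2057 and 1777 in Con A livers 1 to 4 and 3314, 3359, 3694 and 2971 in Con A + MSCs livers 1 to 4. The Con A livers lay below all others, and Atp5h passed the adjusted p after Con A (-0.51, adjusted p = 0.0151) and was called higher with MSCs against Con A (0.72, SE 0.16, limma adjusted p = 0.0245). That call was kept in 8 of the 12 fits with 1 liver left out. Atp5f1 was not called, with -0.17 after Con A and 0.40 with MSCs.

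Of the 3 c-ring genes, Atp5g1 was called and the other two were not. Atp5g1 (ENSMUSG00000006057, chr11:96068852-96075670 in mm10) had values of 4830, 3400, 3265 and 2822 in Ctrl livers 1 to 4, 2310, 2396, 2286 and 2198 in Con A livers 1 to 4 and 3445, 3694, 3973 and 3538 in Con A + MSCs livers 1 to 4. The Con A livers, between 2198 and 2396, lay below all Ctrl and all Con A + MSCs livers. The log2 fold change was -0.61 after Con A (SE 0.14, limma adjusted p = 0.00302) and 0.67 with MSCs against Con A (SE 0.14, adjusted p = 0.0226), calls that held in 11 and in 9 of the 12 fits with 1 liver left out.

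Atp5g2 (ENSMUSG00000062683, chr15:102662864-102671127) had values of 1485, 1328, 1468 and 1308 in Ctrl livers 1 to 4, 1554, 1646, 1598 and 1494 in Con A livers 1 to 4 and 1616, 1724, 2101 and 2011 in Con A + MSCs livers 1 to 4. All 8 livers given Con A lay above the 4 Ctrl livers, narrowly so in Con A liver 4. Atp5g2 was not called (0.17, SE 0.10, limma adjusted p = 0.176, after Con A), and with MSCs against Ctrl it passed the adjusted p alone (0.41, adjusted p = 0.0079). Pseudogenes share 86.9% of the windows of its transcript, so its values are uncertain. Atp5g3 (ENSMUSG00000018770, chr2:73908447-73911325) had values of 5560, 4036, 3642 and 3161 in Ctrl livers 1 to 4, 3859, 3642, 3694 and 3744 in Con A livers 1 to 4 and 4190, 3642, 4190 and 4374 in Con A + MSCs livers 1 to 4. Its groups overlapped throughout, with log2 fold changes of -0.10 and 0.13 and none called.

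Within each liver, the log2 ratio of Atp5g1 to Atp5g3 was -0.19 ± 0.04 in Ctrl, -0.70 ± 0.07 in Con A and -0.16 ± 0.16 in Con A + MSCs (mean ± SD, n = 4). It was thus 0.51 lower after Con A and 0.54 higher with MSCs against Con A, without overlap in either (2-sided exact permutation test, p = 0.0286, the smallest that 4 against 4 livers allow, Benjamini-Hochberg adjusted p = 0.0429 over 6 such tests). The ratio of Atp5g1 to Atp5g2 was 0.78 lower and then 0.43 higher (exact permutation p = 0.0286 and adjusted p = 0.0429 for each). The ratio of Atp5g2 to Atp5g3 differed by 0.27 and 0.11 (exact permutation p = 0.171 and 0.286), which did not pass. These ratios are between genes of unequal transcript length and describe a change between groups, not which gene is more abundant. Atp5g1 was already called in both comparisons on these same values, while Atp5g2 and Atp5g3 were not. The ratio tests were not among the planned tests, largely restate those calls, and use the same Con A livers in both comparisons. They add no independent support.

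**Figure D3:**
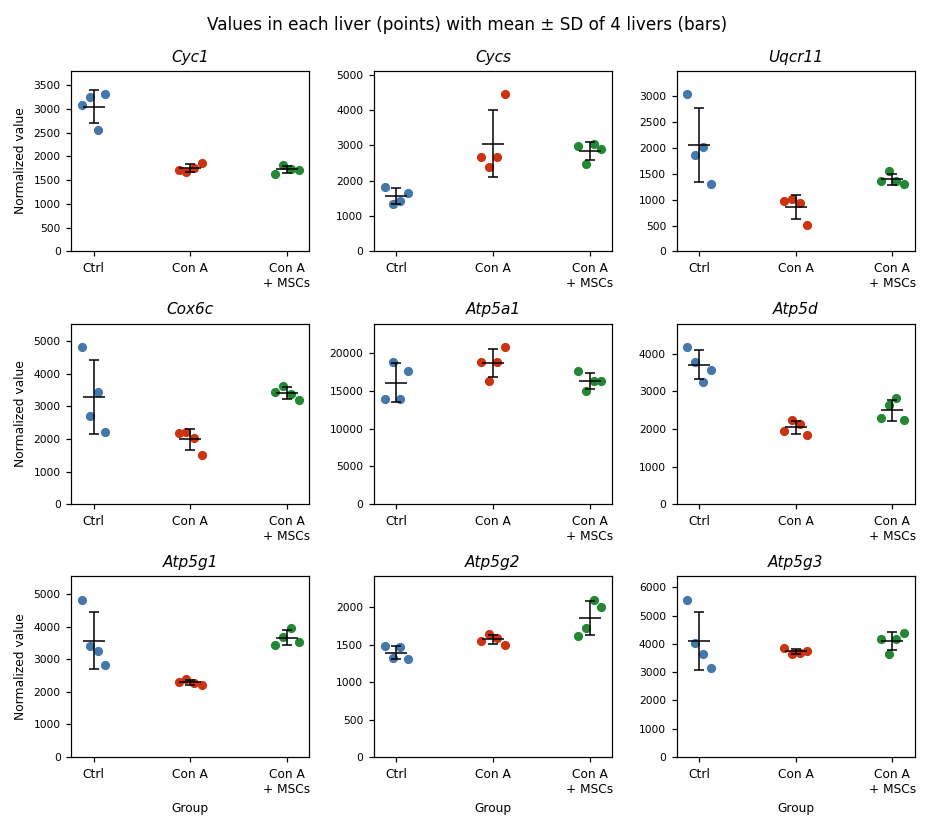
Normalized values of 9 genes in each liver (points, livers 1 to 4 from left to right in a group) with mean ± SD of 4 livers (bars), each on its own axis from 0. Cyc1 is low and Cycs high in both groups given Con A, Atp5g1 and Cox6c are low in the Con A group, and Atp5a1 and Atp5g3 overlap between groups.

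The 3 membrane accessory subunits, encoded by Atp5k, Atp5j2 and Atp5l, lie in the membrane where ATP synthase dimers form, and they varied widely between livers. Atp5k had values of 568, 378, 424 and 133 in Ctrl livers 1 to 4, 223, 254, 208 and 49 in Con A livers 1 to 4 and 275, 384, 305 and 274 in Con A + MSCs livers 1 to 4. Con A liver 4 and Ctrl liver 4 were the lowest of their groups by far, and the fold changes of -1.09 (SE 0.51, limma adjusted p = 0.0834) and 0.98 (SE 0.51, adjusted p = 0.188), the largest of complex V, did not pass. Atp5j2 had values of 3359, 1936, 2416 and 1350 in Ctrl livers 1 to 4, 1626, 1826, 1526 and 683 in Con A livers 1 to 4 and 2358, 2468, 2576 and 1936 in Con A + MSCs livers 1 to 4. Liver 4 was again the lowest in each group, and Atp5j2 was not called, with -0.69 (SE 0.31, limma adjusted p = 0.0733) and 0.81 (SE 0.31, adjusted p = 0.0891). Atp5l ranged from 772 to 1628 in Con A and from 1818 to 2418 in Con A + MSCs and was not called, and 76.0% of the windows of its transcript are shared with pseudogenes and other transcripts.

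Cytochrome c went the other way. Cycs (ENSMUSG00000063694, chr6:50562563-50566538) encodes the somatic form of the electron carrier, which also triggers apoptosis when it leaves mitochondria. Its values were 1832, 1352, 1411 and 1660 in Ctrl livers 1 to 4, 2680, 2387, 2680 and 4442 in Con A livers 1 to 4 and 2994, 2459, 3030 and 2888 in Con A + MSCs livers 1 to 4. All 8 livers given Con A lay above the 4 Ctrl livers, and Con A liver 4 was far above the rest. Cycs rose by 0.93 on the log2 scale after Con A (SE 0.18, limma adjusted p = 0.0009) and by 0.87 with MSCs against Ctrl (SE 0.18, adjusted p = 0.00234), while the difference between Con A + MSCs and Con A was -0.06 (95% interval -0.45 to 0.33). Both calls held with any 1 liver left out, and 26.1% of the windows of its transcript are shared with Cycs pseudogenes and other genes.

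The 3 factors differed from each other. Atp5sl, also known as a distal membrane-arm assembly factor of complex I, had values of 810, 530, 558 and 490 in Ctrl livers 1 to 4, 264, 281, 282 and 207 in Con A livers 1 to 4 and 360, 408, 347 and 336 in Con A + MSCs livers 1 to 4. The Con A, Con A + MSCs and Ctrl livers formed 3 separate ranges in rising order. Atp5sl fell by 1.19 on the log2 scale after Con A (SE 0.16, limma adjusted p = 5.6e-05) and was called lower with MSCs against Ctrl (-0.69, SE 0.16, adjusted p = 0.00401). Atp5s, an accessory protein named for the coupling factor of ATP synthase, had values of 84, 49, 74 and 52 in Ctrl livers 1 to 4, 60, 72, 76 and 58 in Con A livers 1 to 4 and 116, 122, 110 and 83 in Con A + MSCs livers 1 to 4. Its Con A + MSCs livers lay above the Con A livers and overlapped with Ctrl liver 1, and it was called higher with MSCs against Con A (0.68, SE 0.20, limma adjusted p = 0.0469) and against Ctrl (0.75, SE 0.20, adjusted p = 0.0113). Its values lie near 64, the value that every row of the table reaches in at least 2 livers. Cox7a2l, which helps to join complexes III and IV into supercomplexes, had values of 1284, 1342, 1442 and 1410 in Ctrl livers 1 to 4, 1324, 1518, 1359 and 1336 in Con A livers 1 to 4 and 1706, 1724, 1852 and 1418 in Con A + MSCs livers 1 to 4. The groups overlapped, and it was not called (0.01 after Con A and 0.27 with MSCs against Con A, limma adjusted p = 0.914 and 0.0841).

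The second comparison asks how livers given MSCs after Con A differed from those given PBS. The Con A livers serve in both comparisons, so the fold changes of both rest in part on the same 4 livers. Members were mostly higher with MSCs: 34 of 38 had a fold change above 0, and in 28 all 4 Con A + MSCs livers lay above all 4 Con A livers, where 11.9% of all rows do. The test called 5 higher (Uqcrq, Cox6c, Atp5g1, Atp5h and Atp5s, 13.2% of members, against 4.2% of all rows) and 0 lower (against 4.38% of all rows). By the adjusted p alone 11 were higher (6.5% of all rows) and 0 lower (6.65%), and at an unadjusted p under 0.05 with the fold threshold 12 were higher (8.06% of all rows) and 0 lower (6.97%) in limma. The median log2 fold change was 0.57 in complex III, 0.52 in complex IV and 0.54 in complex V, beside 0.00 over all rows.

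The 5 calls depended on single livers. With 1 liver left out at a time, between 0 members (without Con A liver 1, without Con A + MSCs liver 2 or without Con A + MSCs liver 3) and 9 members (without Ctrl liver 1) were called higher, while over all rows the count called higher went from 474 to 5, 8 and 4 in those 3 fits. The complex medians stayed between 0.35 and 0.64 in these 12 fits. Cyc1 (-0.02), Cycs (-0.06), Atp5a1 (-0.20) and Atp5b (-0.39) were the members with a fold change below 0, and none was called.

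**Figure D4:**
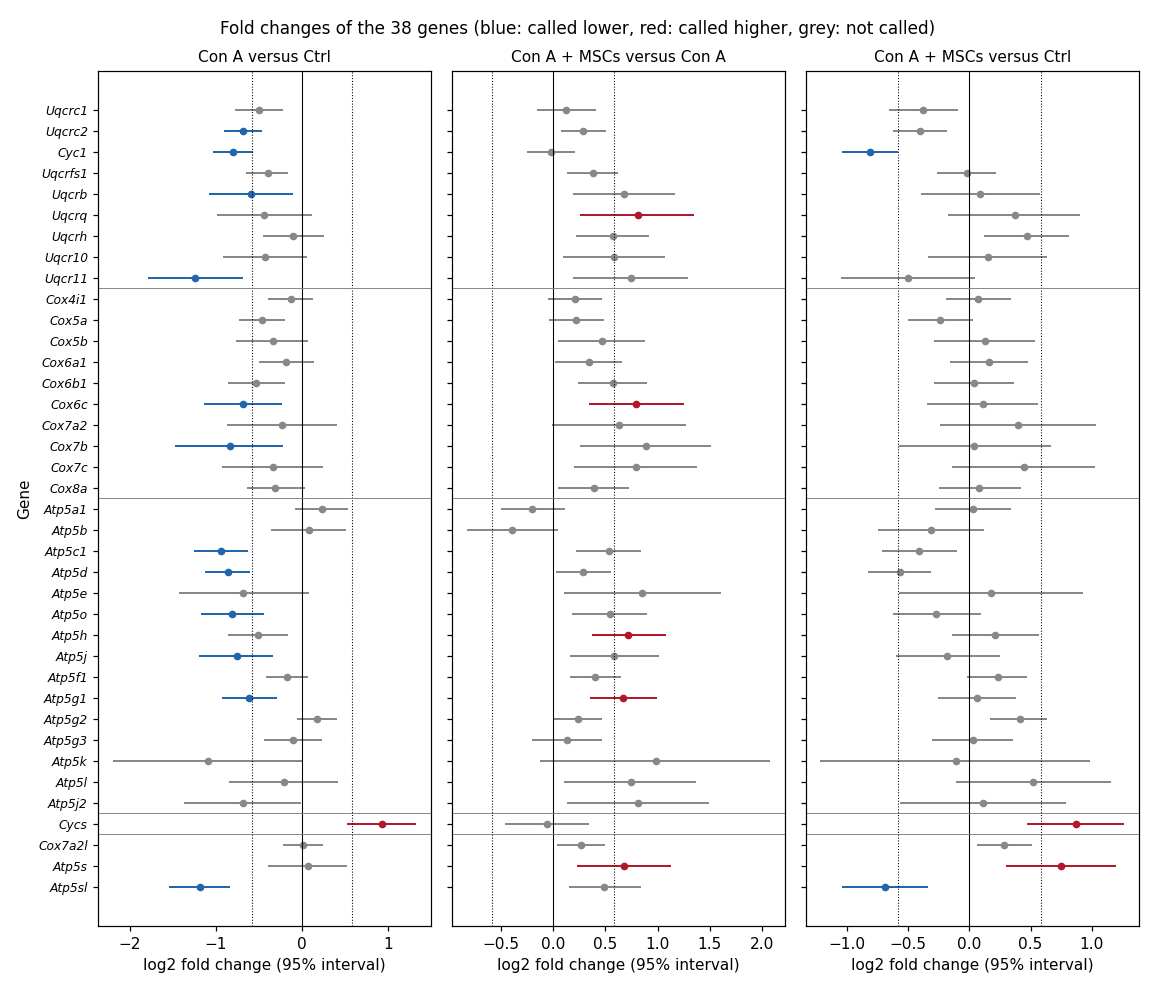
Log2 fold change with its 95% interval (limma, all 12 livers in 1 fit) for the 38 genes by complex, in the 3 comparisons, with dotted lines at a fold of 1.5. After Con A 12 genes are blue (called lower) and Cycs is red (called higher), with MSCs against Con A 5 are red, and with MSCs against Ctrl 2 are blue and 2 are red.

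In the third comparison, of Con A + MSCs with Ctrl, 4 members differed. Cyc1 and Atp5sl were called lower (2 of 38, where 13.1% of all rows were) and Cycs and Atp5s higher (2 of 38, where 13.6% were). By the adjusted p alone 6 were lower (18.4% of all rows) and 5 higher (22.3%). The median log2 fold change was -0.02 in complex III, 0.10 in complex IV and 0.03 in complex V. All 4 livers lay below Ctrl in 5 members, where 17.3% of all rows do, and above it in 2, where 20.6% do. The precision differed between members: the 95% interval was -0.26 to 0.21 in Uqcrfs1 and -0.57 to 0.66 in Cox7b, and in Atp5k, the widest of the members, it was -1.21 to 0.98.

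Transcript length moved with the difference between MSCs and Con A. The listed transcripts of the members had a median length of 727 bases, against 2755 bases over the 11168 rows with a GENCODE length, and 22 of the 38 lay in the shortest of 10 bins of rows by length. In that bin the median log2 difference from the Ctrl mean was -0.11 to 0.14 in Ctrl livers, -0.13 to 0.03 in Con A livers and 0.10 to 0.22 in Con A + MSCs livers, and in the longest bin it was -0.11 to 0.11, -0.05 to 0.07 and -0.28 to -0.06. Ctrl liver 1 was the highest Ctrl liver in the shortest bin (0.14) and Ctrl liver 4 the lowest (-0.11), as they were for the members. Across the 38 members, which share livers and are not replicates, Spearman's rho between length and fold change was -0.51 for MSCs against Con A and 0.21 for Con A against Ctrl. The median fold change after Con A was -0.46 in the 23 members of at most 1000 bases and -0.44 in the 15 longer ones, and with MSCs against Con A it was 0.58 and 0.38. With log2 values centred in each liver within 10 bins of length, the medians were 0.38, 0.33 and 0.35 in complexes III, IV and V for MSCs against Con A and -0.42, -0.30 and -0.59 for Con A against Ctrl. Calls numbered 2 higher (Cox6c and Atp5g1) in the former and 11 lower and 1 higher in the latter. The listed transcript of Atp5g1 has 4715 bases, the longest of the members, and its change with MSCs against Con A went from 0.67 to 0.81. Those of Atp5g2 and Atp5g3 have 731 and 723 bases. Whether the long Atp5g1 transcript is the one expressed was not tested, and 7.63% of its 75-base windows are shared with other genes. The part of length in the differences was not tested beyond this.

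**Figure D5:**
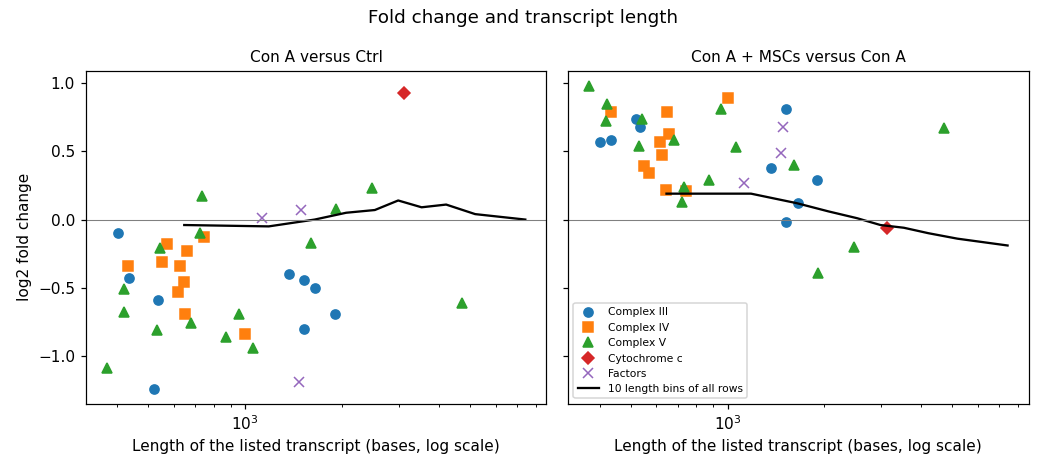
Log2 fold change of each of the 38 genes (points, by complex) against the length of its listed transcript in bases (log axis), after Con A (left) and with MSCs against Con A (right), with a line for the median of each of 10 length bins of all rows. With MSCs the line itself slopes from short to long transcripts and most members lie above it, and after Con A most members of up to 1000 bases lie below the line, while Atp5a1 and Cycs lie above it.

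Other genes of respiration were read from lists. Of 37 genes with symbols of complex I, which passes electrons from NADH, 18 fell and 1 rose after Con A (median log2 fold change -0.63), beside 19.2% and 19.5% of all rows. With MSCs against Con A 9 were higher and 1 lower (median 0.58), beside 4.2% and 4.38% of all rows. The 4 with the largest Con A difference among those called in both were Ndufb2 (-1.11 and 0.89), Ndufv3 (-1.04 and 0.77), Ndufb10 (-1.01 and 0.66) and Ndufa4l2 (2.83 and -0.87). Ndufa4l2, a hypoxia-inducible relative of Ndufa4, matches the symbols but is not counted as a subunit of complex I here. It was the only gene of the 37 that rose after Con A and the only 1 lower with MSCs. Its Ctrl values were 34 to 50, so it was in the table only through livers given Con A. Of the 4 complex II genes, Sdhb and Sdhc fell (-1.22 and -0.81), and Sdhc was higher with MSCs (0.63, limma adjusted p = 0.021). Of 9 further subunits of complexes III to V, 3 were in the table (Ndufa4, Usmg5 and 2010107E04Rik), and 1, Ndufa4, now counted to complex IV, fell (-0.76, limma adjusted p = 0.0308).

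Of 32 assembly factors in the table, 6 fell and 2 rose after Con A, where 6 is close to the 19.2% of all rows called lower. The 2 that rose are a smaller share than the 19.5% of all rows called higher. With MSCs against Con A 4 were higher (4.2% of all rows). Bcs1l, which inserts the Rieske protein into complex III, was called in both (-0.94 and 0.69). Among the 2 that rose was Hccs (0.60, limma adjusted p = 0.00237), the enzyme that attaches haem to cytochrome c and cytochrome c1, whose own genes went in opposite directions. Of 5 genes for the ATP synthase inhibitor and the carriers of adenine nucleotides, phosphate and protons, 1 was called after Con A. This was the inhibitor gene Atpif1, which fell (-0.59), a share of the 5 close to the 19.2% of all rows called lower. The carrier genes Slc25a4 (0.53) and Ucp2 (0.52) passed the adjusted p and not the fold threshold. Both were called higher with MSCs against Ctrl (0.69 and 0.68), beside 13.6% of all rows.

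Genes for other parts of mitochondria were read in the same way. Of 20 genes of the outer membrane, import and matrix, 1 fell and 3 rose after Con A (median 0.15, beside 19.2% and 19.5% of all rows), and 0 were called with MSCs (median 0.01). The gene that fell was Cs, citrate synthase (-0.95, limma adjusted p = 3.6e-05), and those that rose were Tomm70a (0.97), Tomm20 (0.90) and Hspd1 (0.64), which serve protein import and folding. Under the fold threshold, Opa1 (-0.56) passed the adjusted p downward, and Tomm40 (0.58), Hspa9 (0.55), Tomm22 (0.52), Timm23 (0.48) and Vdac3 (0.39) passed it upward. Of 13 regulators of respiratory genes, the coactivators Ppargc1b (-1.57) and Ppargc1a (-0.67) fell and their relative Pprc1 rose (1.43, limma adjusted p = 0.00253), shares of the list no larger than those of all rows, and 0 were called with MSCs against Con A. Rows matched by a search for symbols of cytosolic ribosomal proteins numbered 4 (Rplp0, Rplp1, Rplp2 and Rpsa). All 4 rose after Con A (median 1.06), with 0 called with MSCs (median 0.10).

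Cell type markers moved with Con A as well, where 19.2% of all rows fell and 19.5% rose, and in bulk liver fewer cells of a type and less RNA per cell cannot be told apart. Of 15 hepatocyte markers, 8 fell after Con A, and their summed values were 1838181 to 2200022 in Ctrl, 1289890 to 1321294 in Con A and 1152813 to 1236020 in Con A + MSCs. Alb stood at the largest value of the table, 341028, in all 12 livers. No hepatocyte marker was called higher with MSCs against Con A, and 1, Trf, was lower: it stood at 341028 in the 8 other livers and at a lower shared step, 147377, in the 4 Con A + MSCs livers. Without Trf, left out after its values were seen, the sums were 1497153 to 1858994 in Ctrl, 948862 to 980266 in Con A and 1005436 to 1088643 in Con A + MSCs, so that the order of the last 2 groups turned. Other markers in that sum also moved between steps: Apoa2 stood at 34334 in all Con A livers and at 44484 in all Con A + MSCs livers. The order of these 2 groups therefore depends on which marker is left out. All 6 neutrophil markers in the table rose after Con A (sums 70 to 147 in Ctrl, 1092 to 1982 in Con A and 851 to 1715 in Con A + MSCs), as did both T cell markers (15 to 37, 114 to 236 and 136 to 162). Only 6 of 9 listed neutrophil and 2 of 12 listed T cell markers were in the table, where every row reaches 64 in at least 2 livers. None of these markers reached 64 in 2 Ctrl livers. They were therefore in the table only through livers given Con A, and their rise was largely fixed in advance. Of 12 macrophage and monocyte markers 8 fell and 4 rose, all 5 erythroid markers fell, 5 of 8 endothelial markers fell and 1 rose, and 2 of 6 stellate and fibroblast markers and the 1 B cell marker fell. Among the monocyte markers that rose, Cd14 and Ly6c2 were also below 64 in all Ctrl livers. With MSCs against Con A, where 4.38% of all rows were called lower and 4.2% higher, the endothelial markers Lyve1 (1.29 after Con A, then -0.90) and Cdh5 (-0.66) were lower and Stab2 (-0.79, then 0.59) was higher, the monocyte marker Cd14 (6.37, then -1.33) was lower, and besides Trf no other marker of these lists was called. The part of these cells in the values of the respiratory genes was not tested.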

How the data were processed

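Poly(A) RNA libraries of 12 mouse livers were read from both ends at 150 bp. The submitters' processing notes name Bowtie2 2.2.1, RSEM 1.2.18 and mm10, and the study's methods name DESeq2. The authors deposited 1 table with a score per gene and liver, a whole number that they had normalized between livers before deposit: column totals lie between 17649654 and 17657159, all medians are 352, and 82.1% of ranks hold the same value in all 12 columns. Sequencing depth is therefore unknown, no counting intervals are given, and count tests (DESeq2) could not be used.

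After adding 1, log2 scores of all 11289 rows entered limma 3.58.1 (lmFit, eBayes with trend, R 4.3.3), with all 12 livers in 1 fit and no covariate, so fold changes of low genes are understated. A row was called where its Benjamini-Hochberg adjusted p was under 0.05 and its fold exceeded 1.5. On simulated data for Con A against Ctrl (11289 rows, 200 changed), limma recovered 75.7% of the rows changed by 1 on the log2 scale (3.16% of calls false) and 22.7% of those changed by 0.6 (9.3% false). The simulated noise was independent between rows. In the data 19.2% of rows were called lower and 19.5% higher, and livers shifted many members together, so these rates need not hold there. Ratios of c-subunit genes, which were not among the planned tests, were compared by exact permutation tests (scipy 1.17.1). Transcript lengths and shared 75-base windows came from GENCODE M21 (GRCm38), and promoters from RefSeq. The library kit does not mark strand, so overlapping genes cannot be told apart by strand.

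Replicates are separate mice by the labels, which were followed where the study's methods give another age and cell number. In each complex the text names, with the value in every liver, the 3 members with the largest change in each Con A comparison, any member called against the majority, the c-subunit genes, Cycs and the 3 factors. Of the lists it names members called in both Con A comparisons, up to 4 a list by the size of the Con A change, and genes named beyond these were chosen after their values were seen. The members and lists were chosen with earlier results of these data known. As alternatives, the pseudocount was 10, rows needed a mean of at least 100, values were centred by the median or in 10 bins of length or GC content, the trend, the other group or the thresholds were left out or changed, the replicate number was a block, the factors stayed with the complex of their symbol, and each liver was left out. After the data were seen, 2 more were added: Ctrl liver 1 and Con A liver 4 left out together, and the replicate block with length bins.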

Additional observations from a re-analysis of the deposited data

Results flagged for a closer look

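In 114 groups of 4 livers (38 members in 3 groups), 1 liver stood apart from the other 3 by Dixon's criterion in 7, where chance gives about 1 in 20 groups. The count of 7 is close to that, and the members share livers and are not independent. In 6 of the 7 it was Con A liver 4. Cycs was 4442 there, against 2387 to 2680 in the other Con A livers. The others were low: Uqcr11 at 517 (944 to 1006), Uqcrb at 1488 (2062 to 2148), Cox5b at 1386 (2075 to 2121), Atp5e at 368 (1088 to 1164) and Atp5l at 772 (1517 to 1628). In the Con A + MSCs group, Atp5c1 was 2298 in liver 4, against 3186 to 3299. Among the flagged genes, Con A liver 4 was high in the carrier gene and low in subunits of all 3 complexes, and the cause was not tested.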

How the results depend on the processing

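The directions of the complex medians after Con A and with MSCs against Con A were kept under all alternatives run, and no called value changed sign. With livers left out 1 at a time, members called lower after Con A numbered 8 to 20, members called higher with MSCs against Con A 0 to 9, and those called lower and higher with MSCs against Ctrl 1 to 3 and 2 to 4, while the complex III median with MSCs against Con A was 0.42 to 0.63. Above a fold of 2, 2 members were lower and 0 higher after Con A, 0 were higher with MSCs against Con A, and 0 were called in either direction with MSCs against Ctrl. Higher calls with MSCs against Con A numbered 12 by the unadjusted p, 11 with no fold threshold, 8 from only the 8 livers compared and 2 with centring in length bins, where the complex III median was 0.38. With MSCs against Ctrl, no fold threshold gave 6 lower and 5 higher, length bins gave 4 lower, and a mean of at least 100 gave 1 higher, since Atp5s is then not tested. Without Ctrl liver 1 and Con A liver 4, 6 members were lower after Con A (complex V median -0.19), the complex III median with MSCs against Con A was 0.42, and 1 was lower and 6 higher with MSCs against Ctrl. The causes of these shifts were not tested. Count-based fits were not run, since the values are no counts.

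Same-numbered livers did not deviate together in every pair (correlations -0.118 to 0.375), so the numbers are not taken to pair the mice. Number 4 alone was its own best match in all 3 pairs of groups (0.168, 0.244 and 0.112), a hint from the data and not from the design. With the replicate number as a block, 15 members were lower after Con A and 13 higher with MSCs against Con A, and with the block and length bins the complex III median was 0.38 and 4 members were lower with MSCs against Ctrl.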
